A study of Homo sapiens with 8 samples.

Results

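Keratins are the intermediate filament proteins of epithelial cells. The 10 keratin genes described here are KRT7, KRT8, KRT18, KRT19, KRT5, KRT6A, KRT17, KRT23, KRT80 and KRT81, taken by their symbols from a table of 32803 gene symbols, in which each had 1 row. They were measured by RNA-seq in cultures of UWB1.289, an ovarian carcinoma line without working BRCA1, and of its BRCA1-restored counterpart UWB1.289+BRCA1, each with a derivative resistant to PARP inhibitors (Olres-UWB1.289 and Olres-UWB1.289+BRCA1). BRCA1 acts in the repair of DNA breaks by homologous recombination, and PARP inhibitors are most toxic to cells that lack this repair. The 4 groups held 2 libraries each. BRCA1-proficient cells were taken at passage 45 (resistant) and 10 (parental), and BRCA1-deficient cells at passage 56 (resistant) and 29 (parental). All cells came from drug-free medium. Each background had 1 resistant derivative, and higher passage went with resistance in both, so passage, the particular derivative and resistance cannot be told apart. Proficient cells were also at a lower passage than deficient cells of the same state, and all came from 1 restored line. BRCA1 state therefore cannot be told apart from passage or from that particular line. Nothing says whether the 2 libraries of a group were separate cultures, so a p-value here weighs a difference against the spread of these libraries only, and that spread may be technical.

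A keratin filament is built from equal parts of an acidic type I keratin and a basic to neutral type II keratin, and the pair in use changes with the kind of epithelium. KRT8 (type II) with KRT18 (type I) is the pair of simple, one-layered epithelia, and glandular and ductal cells, including many ovarian carcinomas, add KRT7 (type II) and KRT19 (type I). KRT5, KRT6A (both type II) and KRT17 (type I) belong to stratified, basal or wounded epithelia, KRT81 (type II) is a hair keratin, and KRT80 (type II) and KRT23 (type I) are expressed in several epithelia. The type II genes and KRT18 lie on chromosome 12, and the other type I genes lie on chromosome 17.

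Some of these genes are so alike in sequence that reads can match more than 1 of them. The coding sequence of KRT6A was 97.93% identical to that of KRT6C and 97.52% identical to that of KRT6B in the GENCODE v29 transcripts (GRCh38), with shared runs of up to 349 and 269 bases. The stretch of 90 coding bases in which the KRT6 genes differ most (coding positions 656 to 745, read along the coding strand) is shown because only such stretches separate their reads, with capitals at the 10 positions that are not the same in all 3 genes.
KRT6A: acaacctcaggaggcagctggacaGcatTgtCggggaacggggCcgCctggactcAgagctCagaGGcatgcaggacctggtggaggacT
KRT6B: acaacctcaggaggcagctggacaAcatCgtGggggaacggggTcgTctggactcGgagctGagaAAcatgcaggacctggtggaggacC
KRT6C: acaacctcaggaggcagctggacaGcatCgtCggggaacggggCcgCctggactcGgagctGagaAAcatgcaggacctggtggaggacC

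KRT81 and its neighbour KRT86, another hair keratin, were 90.13% identical over their coding sequences and shared a run of 605 bases. Their most different 90 coding bases (positions 1237 to 1326) are shown for the same reason, with capitals at the 19 positions that differ.
KRT81: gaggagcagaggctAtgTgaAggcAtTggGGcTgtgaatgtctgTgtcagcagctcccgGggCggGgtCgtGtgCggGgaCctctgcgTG
KRT86: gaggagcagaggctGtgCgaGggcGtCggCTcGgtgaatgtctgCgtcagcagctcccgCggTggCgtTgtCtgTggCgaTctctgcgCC

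How reads that match several places were handled, and whether strand was used, is not given in the sources used here. The counts of KRT6A, KRT81 and KRT86 are therefore uncertain between paralogs. KRT8 and KRT18 overlap each other on opposite strands. KRT7 overlaps the antisense gene KRT7-AS, the pseudogene KRT87P and KRT86, and KRT23 and KRT80 each overlap a noncoding gene on the opposite strand. Without a known strand setting, reads from such partners cannot be told apart. GENCODE v29 also holds 50 pseudogenes named for KRT8 and 68 named for KRT18.

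The libraries held 24094821 to 34394107 counts. BRCA1 itself, read first as a check of the labels, averaged 2271 ± 134 CPM in resistant proficient, 202 ± 14.4 in parental proficient, 34.7 ± 0.0847 in resistant deficient and 35.6 ± 0.647 in parental deficient cells (SD, n = 2 each). CPM are counts relative to the library total, scaled by TMM factors. Resistant and parental proficient cells thus also differed in BRCA1 mRNA, which cannot be told apart from resistance in that background. The epithelial surface gene EPCAM stood at 577 to 786 CPM and the Mullerian lineage factor PAX8 at 209 to 268 CPM in the group means, whereas WT1, a frequent marker of serous ovarian carcinoma, was at 8.50 CPM in resistant proficient cells and at most 0.219 CPM in the other groups. Of 10 fibroblast markers, 3 to 5 were at 0 in a library. COL3A1, DCN, LUM and PDGFRB were at or near 0, and the summed fibroblast level was 12.4 to 72.4 CPM, led by THY1 in the resistant deficient libraries and by COL1A2 in the others. Summed leukocyte markers stood at 18.6 to 30.0 CPM, with MS4A1 and FCGR3A at 0. PTPRC was counted in every group, at 4.075 to 12.8 CPM in the group means. CD14 reached 21.3 CPM in resistant proficient cells, and CD68 had 16.2 and 14.3 CPM in resistant and parental deficient cells. Summed endothelial markers stood at 12.1 to 63.9 CPM. CDH5 led them in resistant and parental deficient cells, at 38.1 and 35.4 CPM.

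Keratin transcripts are rich in G and C, and the libraries differed in how they represented such transcripts. Transcript GC content was 50.28% for KRT23, 55.8% for KRT6A and 56.78% to 62.88% for the other members, with KRT7 highest. Genes of at least 56.74% GC, the GC-richest of those tested, deviated from their own 8-library mean by a median log2 CPM of -0.605 to -0.314 in resistant proficient, -0.604 to -0.447 in parental proficient, 0.665 to 1.04 in resistant deficient and 0.0867 to 0.232 in parental deficient libraries. GC content and BRCA1 state moved together and cannot be told apart in the levels as counted. The shift of GC-rich genes also separated resistant from parental deficient libraries, so it cannot be told apart from resistance in that background either. Each comparison below was therefore also computed after the trend on GC content was removed from every library, and where this changes the direction or the call of a keratin both values are given.

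**Figure D1:**
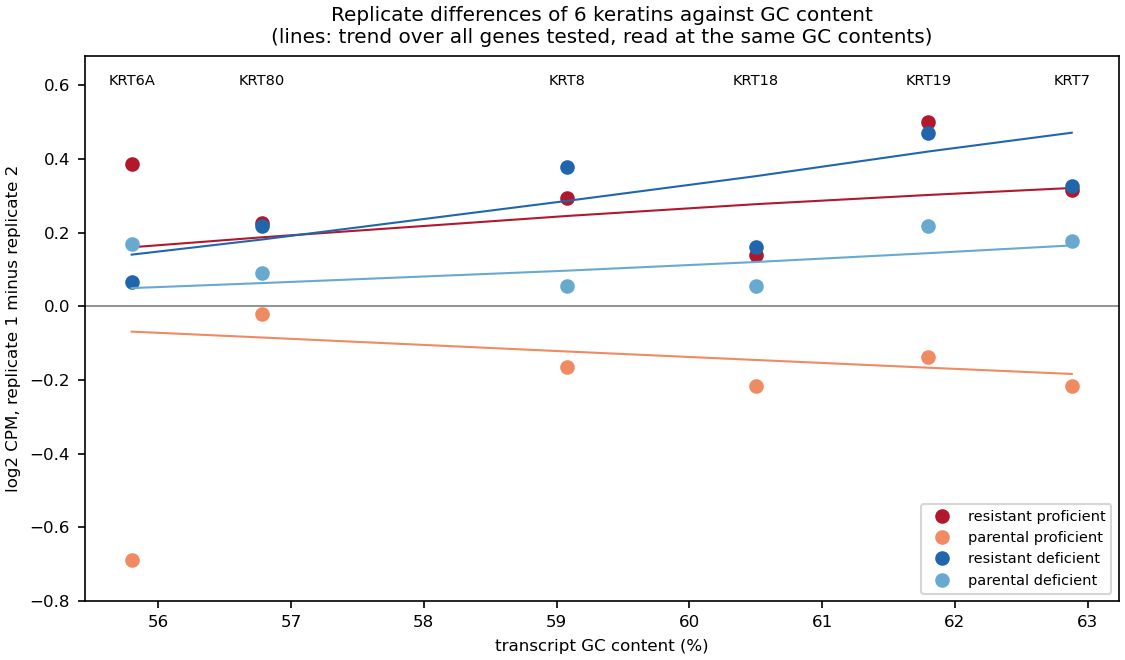
Difference in log2 CPM between replicate 1 and replicate 2 of a group (vertical axis) against transcript GC content in percent (horizontal axis) for the 6 keratins that reached 5 CPM, with points for genes, colours for groups and lines for the trend over all genes tested. Within the parental proficient group all 6 keratins were lower in replicate 1, and within the other 3 groups all 6 were higher in replicate 1, as the lines of those groups are; KRT7 in resistant deficient cells differed by 0.326 where the trend gives 0.471.

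The replicate differences of the 6 keratins above 5 CPM had the sign of the GC trend in every group. KRT19, for instance, differed between replicates by 0.501 on the log2 scale in resistant proficient cells, where the trend gave 0.302. In parental proficient cells the KRT19 difference was -0.138, where the trend gave -0.167.

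The simple epithelial pair made up most of the keratin mRNA in every group. KRT8 had 1166 and 951 CPM in resistant proficient, 883 and 990 CPM in parental proficient, 1861 and 1432 CPM in resistant deficient, and 2767 and 2665 CPM in parental deficient libraries. KRT18, its partner, had 1069 and 970.3 CPM in resistant proficient, 1052 and 1221 CPM in parental proficient, 1264 and 1131 CPM in resistant deficient, and 2431 and 2339 CPM in parental deficient libraries. Parental deficient cells were the highest group for both genes with no overlap with any other group, and the libraries of resistant and parental proficient cells overlapped for both.

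In the deficient background both members of the pair were lower in resistant cells. KRT8 fell by 0.72 ± 0.12 (log2 fold change ± SE, edgeR adjusted p = 0.000474) and KRT18 fell by 0.99 ± 0.09 (edgeR adjusted p = 4.39e-06). With the GC trend removed both passed in the same direction, with a log2 fold change of -1.62 for KRT18. In the proficient background neither passed: the log2 fold change of resistant over parental was 0.18 ± 0.12 for KRT8 (edgeR adjusted p = 0.242) and -0.16 ± 0.08 for KRT18 (edgeR adjusted p = 0.143). The KRT18 value was -0.24 with the GC trend removed and then passed (edgeR adjusted p = 0.000443). KRT8 passed upward without the filter on low counts, at 0.21 (edgeR adjusted p = 0.00197), and when any 1 of 3 libraries was left out: at 0.35 without replicate 2 of resistant proficient cells, and at 0.22 without either replicate of resistant deficient cells.

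Parental proficient cells had less of the pair than parental deficient cells. KRT8 fell by 1.54 ± 0.12 (edgeR adjusted p = 1.39e-06) and KRT18 fell by 1.07 ± 0.09 (edgeR adjusted p = 1.30e-06), and the log2 fold changes were -0.96 and -0.43 with the GC trend removed. Between the resistant lines the direction depended on the GC trend. As counted, KRT8 was lower in resistant proficient than in resistant deficient cells by a log2 fold change of -0.64 ± 0.12 (edgeR adjusted p = 0.000588) and KRT18 by -0.23 ± 0.08 (edgeR adjusted p = 0.0277). With the trend removed both were higher in resistant proficient cells, at 0.35 for KRT8 (edgeR adjusted p = 4.71e-08) and 0.95 for KRT18 (edgeR adjusted p = 2.51e-12). The KRT18 call was also lost without replicate 2 of resistant proficient cells (-0.13), without replicate 1 of resistant deficient cells (-0.12), without replicate 2 of parental deficient cells (-0.20) and with the 2 groups fitted alone (-0.24, edgeR adjusted p = 0.0541).

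**Figure D2:**
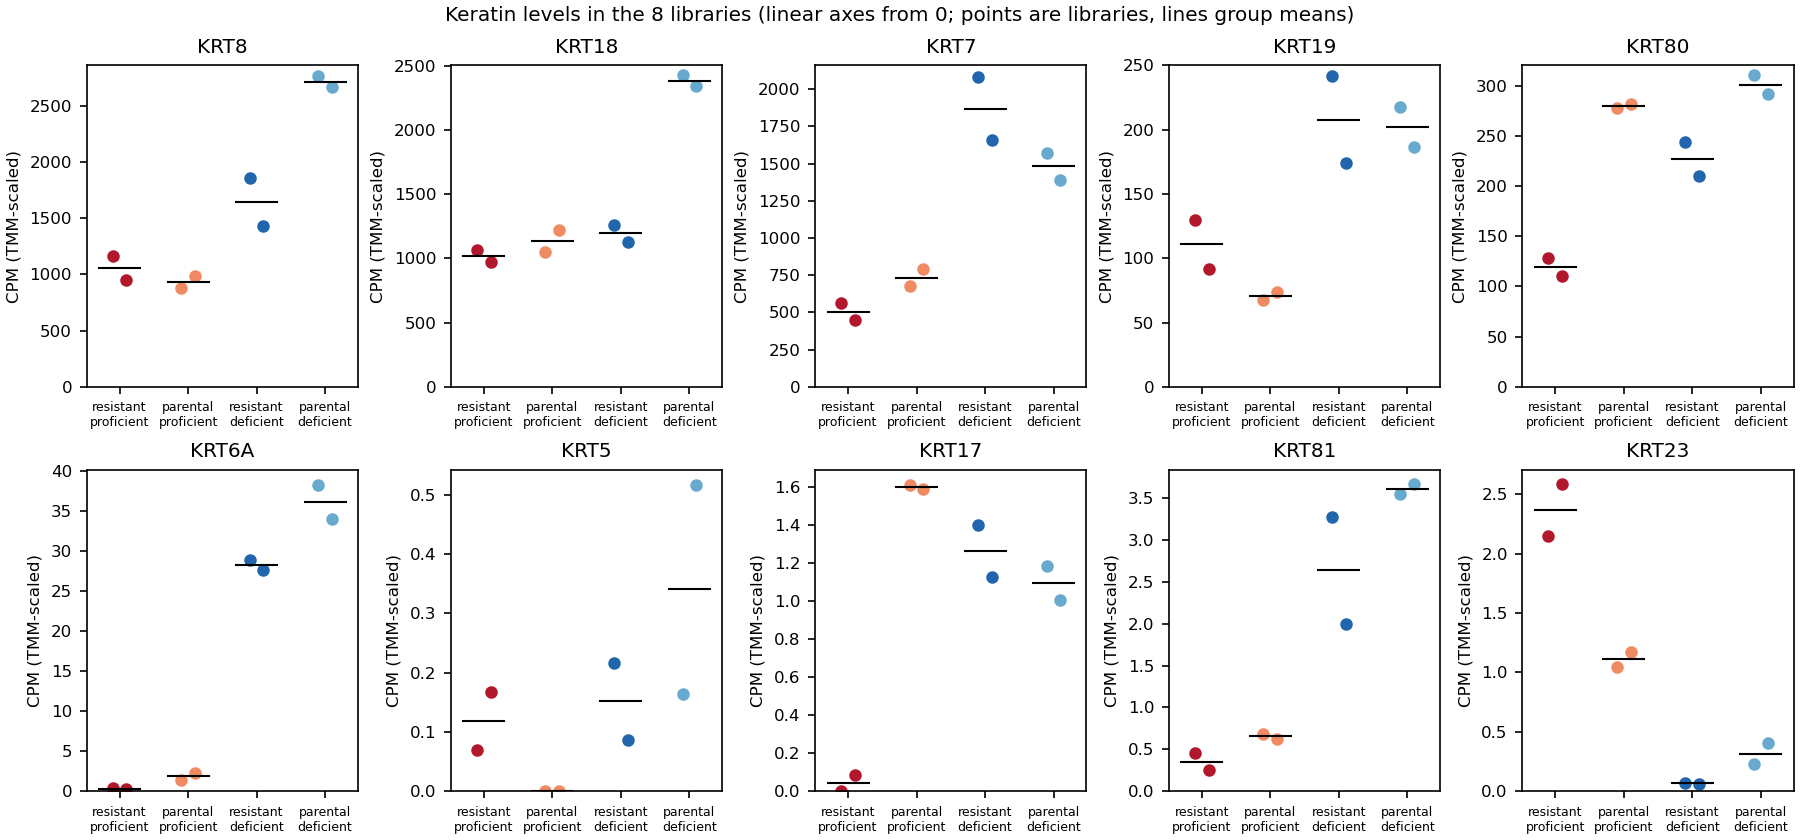
Level of each of the 10 keratins in CPM on TMM-scaled totals (vertical axis, linear from 0, a scale of its own per gene) in the 4 groups, with a point per library and a line at the group mean. KRT8 and KRT18 are highest in parental deficient cells, KRT6A and KRT81 are high in both deficient groups, KRT17 is near 0 in resistant proficient cells alone, and KRT23 is highest in resistant proficient cells.

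KRT7, the type II keratin of glandular and ductal cells, had 561 and 451 CPM in resistant proficient, 679 and 790 CPM in parental proficient, 2079 and 1658 CPM in resistant deficient, and 1571 and 1390 CPM in parental deficient libraries. The deficient groups stood above the proficient groups in every library, and no 2 groups overlapped. In resistant relative to parental proficient cells KRT7 fell by 0.54 ± 0.13 (edgeR adjusted p = 0.00391), a call that was lost without replicate 2 of resistant proficient cells, where the change was -0.35 (edgeR adjusted p = 0.0604). In the deficient background KRT7 was the 1 member that rose as counted, by a log2 fold change of 0.34 ± 0.13 (edgeR adjusted p = 0.0400). This rise was 0.14 without replicate 1 of resistant deficient cells and 0.22 without replicate 2 of parental deficient cells, both past the threshold no longer. It was also lost, at 0.31, without replicate 1 of parental proficient cells. Once the GC trend was removed KRT7 instead fell by 0.52 ± 0.04 (edgeR adjusted p = 1.41e-09).

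Restored BRCA1 went with less KRT7 in both states. The log2 fold change of proficient over deficient was -1.01 ± 0.13 in parental cells (edgeR adjusted p = 3.94e-05) and -1.89 ± 0.13 in resistant cells (edgeR adjusted p = 2.08e-07), or -0.29 and -0.37 with the GC trend removed. KRT7-AS, the antisense gene that shares part of the KRT7 locus, had 26.4 ± 2.34, 43.3 ± 1.04, 23.8 ± 0.844 and 35.2 ± 1.41 CPM in resistant proficient, parental proficient, resistant deficient and parental deficient cells (SD, n = 2 each). With resistance KRT7-AS fell by 0.72 ± 0.10 in proficient (edgeR adjusted p = 0.000102) and fell by 0.56 ± 0.10 in deficient cells (edgeR adjusted p = 0.00062). Its counts were a small part of those of KRT7 in each library.

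KRT19, a type I keratin that has no tail domain and is used in glandular epithelia, had 130 and 91.8 CPM in resistant proficient, 67.2 and 74.0 CPM in parental proficient, 241 and 174 CPM in resistant deficient, and 217 and 187 CPM in parental deficient libraries. The 2 deficient groups overlapped, and the proficient groups lay below both of them. KRT19 rose in resistant relative to parental proficient cells by 0.65 ± 0.17 (edgeR adjusted p = 0.00743), and by 0.57 with the GC trend removed. Without replicate 1 of resistant proficient cells the change was 0.43 (edgeR adjusted p = 0.0628). In the deficient background the log2 fold change was 0.04 ± 0.17 as counted (edgeR adjusted p = 0.855) and -0.72 ± 0.05 with the GC trend removed (edgeR adjusted p = 6.82e-10). It was -0.24 without replicate 1 of resistant deficient cells and -0.10 without replicate 2 of parental deficient cells.

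KRT19 was lower in parental proficient than in parental deficient cells by a log2 fold change of -1.52 ± 0.17 (edgeR adjusted p = 1.86e-05), or -0.82 with the GC trend removed. Between resistant proficient and resistant deficient cells it was -0.90 ± 0.17 as counted (edgeR adjusted p = 0.000502) and 0.47 ± 0.05 with the GC trend removed (edgeR adjusted p = 2.57e-07), so its direction there depended on the GC trend.

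KRT80, a type II keratin found near desmosomes and in filaments of differentiating epithelia, was lower in resistant cells of both backgrounds. It had 129 and 110 CPM in resistant proficient against 277 and 282 CPM in parental proficient libraries, and 244 and 209.7 CPM in resistant deficient against 310.3 and 292 CPM in parental deficient libraries. No resistant library reached the level of a parental library of its background. KRT80 fell by 1.23 ± 0.09 in proficient (edgeR adjusted p = 8.38e-07) and fell by 0.41 ± 0.09 in deficient cells (edgeR adjusted p = 0.00241). Both falls were called under every alternative that was run, at -1.35 and -0.73 with the GC trend removed. Between the parental lines the log2 fold change of proficient over deficient was -0.11 ± 0.09 (edgeR adjusted p = 0.313), and 0.33 ± 0.04 with the GC trend removed (edgeR adjusted p = 5.98e-07). Between the resistant lines it was -0.93 ± 0.09 (edgeR adjusted p = 3.13e-06), and -0.28 with the trend removed.

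The keratins of stratified epithelia were far less abundant, and KRT6A, which rises in wounded and hyperproliferative skin, differed most between the groups. KRT6A had 10 and 6 counts (0.347 and 0.2498 CPM) in resistant proficient, 35 and 67 counts (1.41 and 2.32 CPM) in parental proficient, 801 and 953 counts (28.8 and 27.6 CPM) in resistant deficient, and 1163 and 1185 counts (38.3 and 34.0 CPM) in parental deficient libraries. No groups overlapped, and its group means spanned 6.63 log2 units, the widest range of the 10 members. The log2 fold change of proficient over deficient was -4.26 ± 0.20 in parental (edgeR adjusted p = 2.36e-08) and -6.52 ± 0.26 in resistant cells (edgeR adjusted p = 2.85e-09), with -3.88 and -6.03 after removal of the GC trend. In resistant relative to parental proficient cells KRT6A fell by 2.62 ± 0.34 (edgeR adjusted p = 5.71e-05). In the deficient background the log2 fold change was -0.36 ± 0.15 (edgeR adjusted p = 0.0669), which passed with the GC trend removed (-0.60, edgeR adjusted p = 4.16e-05), without the filter on low counts (-0.37), with the 2 groups fitted alone (-0.39), and without replicate 1 (-0.39) or replicate 2 (-0.36) of parental proficient cells.

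The nearly identical KRT6B and KRT6C were close to 0. KRT6B had 7, 0, 8 and 35 counts and KRT6C had 0, 0, 9 and 7 counts summed over resistant proficient, parental proficient, resistant deficient and parental deficient libraries, against 16, 102, 1754 and 2348 counts for KRT6A. KRT6B was at least 9.61-fold lower in parental proficient than in parental deficient cells, with 3 counts over the group as the floor, and at least 4.43-fold and 5.17-fold lower when 1 of the parental proficient libraries was left out.

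KRT17, a type I keratin of basal cells, hair follicles and wounds, had 0 and 2 counts in resistant proficient libraries, against 40 and 46 counts in parental proficient libraries. It had 39 counts in each resistant deficient library and 36 and 35 counts in parental deficient libraries. The counts were low in resistant proficient cells alone, at 0.0416 ± 0.0589 CPM, against 1.09 to 1.60 CPM in the means of the other groups. Over both libraries of a group KRT17 was 42.3-fold lower in resistant than in parental proficient cells (95% exact interval 11.4 to 355, counting error only) and 33.1-fold lower than in resistant deficient cells (8.85 to 278). Without replicate 1 of resistant proficient cells these ratios were 19.2 and 15.0, and without replicate 2, which holds both counts, KRT17 was at least 15.4-fold lower than in parental proficient cells. Both falls passed (edgeR adjusted p = 4.88e-05 and 4.76e-05). KRT17 did not pass between the deficient groups, at a log2 fold change of 0.21 ± 0.37 (edgeR adjusted p = 0.663) or -0.54 with the GC trend removed (edgeR adjusted p = 0.221). Between the parental lines it was 0.55 ± 0.37 (edgeR adjusted p = 0.215), and it passed upward with the trend removed (edgeR adjusted p = 0.006).

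KRT5, the type II keratin of basal cells, had 2 and 4 counts in resistant proficient, 0 and 0 in parental proficient, 6 and 3 in resistant deficient, and 5 and 18 in parental deficient libraries. It was the 1 member below the filter on low counts and was not tested. A count of 0 in parental proficient libraries puts KRT5 at least 6.31-fold lower there than in parental deficient cells, from the floor of 3 counts over the group. The bound was 2.95 without replicate 2 of parental deficient cells, which holds 18 of the 23 counts, and 3.40 and 2.91 when replicate 1 or replicate 2 of parental proficient cells was left out.

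KRT81, a hair keratin also seen in some carcinomas, had 13 and 6 counts (0.451 and 0.2498 CPM) in resistant proficient, 17 and 18 counts (0.685 and 0.622 CPM) in parental proficient, 91 and 69 counts (3.28 and 1.996 CPM) in resistant deficient, and 108 and 128 counts (3.55 and 3.67 CPM) in parental deficient libraries. Every deficient library stood above every proficient library. The log2 fold change of proficient over deficient was -2.46 ± 0.34 in parental (edgeR adjusted p = 8.17e-05) and -2.86 ± 0.38 in resistant cells (edgeR adjusted p = 4.09e-05), and -1.77 and -1.43 with the GC trend removed. Resistant over parental did not pass as counted, at -0.86 ± 0.46 in proficient (edgeR adjusted p = 0.137) and -0.46 ± 0.29 in deficient cells (edgeR adjusted p = 0.190). The fall in deficient cells passed with the GC trend removed (-1.28, edgeR adjusted p = 0.00016) and without replicate 1 of resistant deficient cells (-0.88, edgeR adjusted p = 0.0397).

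KRT86, the paralog that overlaps KRT81 and KRT7, had 1.58 ± 0.363, 2.46 ± 0.628, 1.73 ± 0.107 and 2.997 ± 0.507 CPM in resistant proficient, parental proficient, resistant deficient and parental deficient cells (SD, n = 2 each). As counted it did not pass between proficient and deficient cells, at a log2 fold change of -0.28 ± 0.27 in parental (edgeR adjusted p = 0.399) and -0.14 ± 0.30 in resistant cells (edgeR adjusted p = 0.693). With the GC trend removed it was 0.40 ± 0.27 in parental cells (edgeR adjusted p = 0.202) and passed upward in resistant cells, at 1.17 ± 0.31 (edgeR adjusted p = 0.00201). Whether KRT86 and KRT81 differ in these values was not tested.

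KRT23, a type I keratin, was the 1 member called higher in proficient than in deficient cells as counted; with the GC trend removed KRT17 and KRT80 were also called higher between the parental lines, and KRT8, KRT18 and KRT19 between the resistant lines. It had 62 counts in each resistant proficient library, 26 and 34 in parental proficient, 2 and 2 in resistant deficient, and 7 and 14 in parental deficient libraries, or 2.37 ± 0.304, 1.11 ± 0.0899, 0.0649 ± 0.0100 and 0.316 ± 0.121 CPM in these groups (SD, n = 2 each). The 4 groups did not overlap. KRT23 rose in proficient over deficient cells by a log2 fold change of 5.11 ± 0.50 in resistant (edgeR adjusted p = 3.41e-06) and 1.79 ± 0.41 in parental cells (edgeR adjusted p = 0.00269). It rose in resistant relative to parental proficient cells by 1.08 ± 0.33 (edgeR adjusted p = 0.0178) and, in resistant relative to parental deficient cells, fell by 2.24 ± 0.65 (edgeR adjusted p = 0.0121). With its lower GC content KRT23 moved little under the GC correction, to 5.02, 1.81, 1.04 and -2.17. Both resistance calls rest on few counts. The rise in proficient cells did not pass by DESeq2 (1.12, adjusted p = 0.127) or without replicate 2 of resistant proficient cells (0.98) or either parental proficient replicate (1.04 and 1.17, edgeR adjusted p = 0.0838 and 0.0637). The fall in deficient cells did not pass without replicate 2 of resistant deficient (-2.12) or of parental deficient cells (-1.80, edgeR adjusted p = 0.0981).

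**Figure D3:**
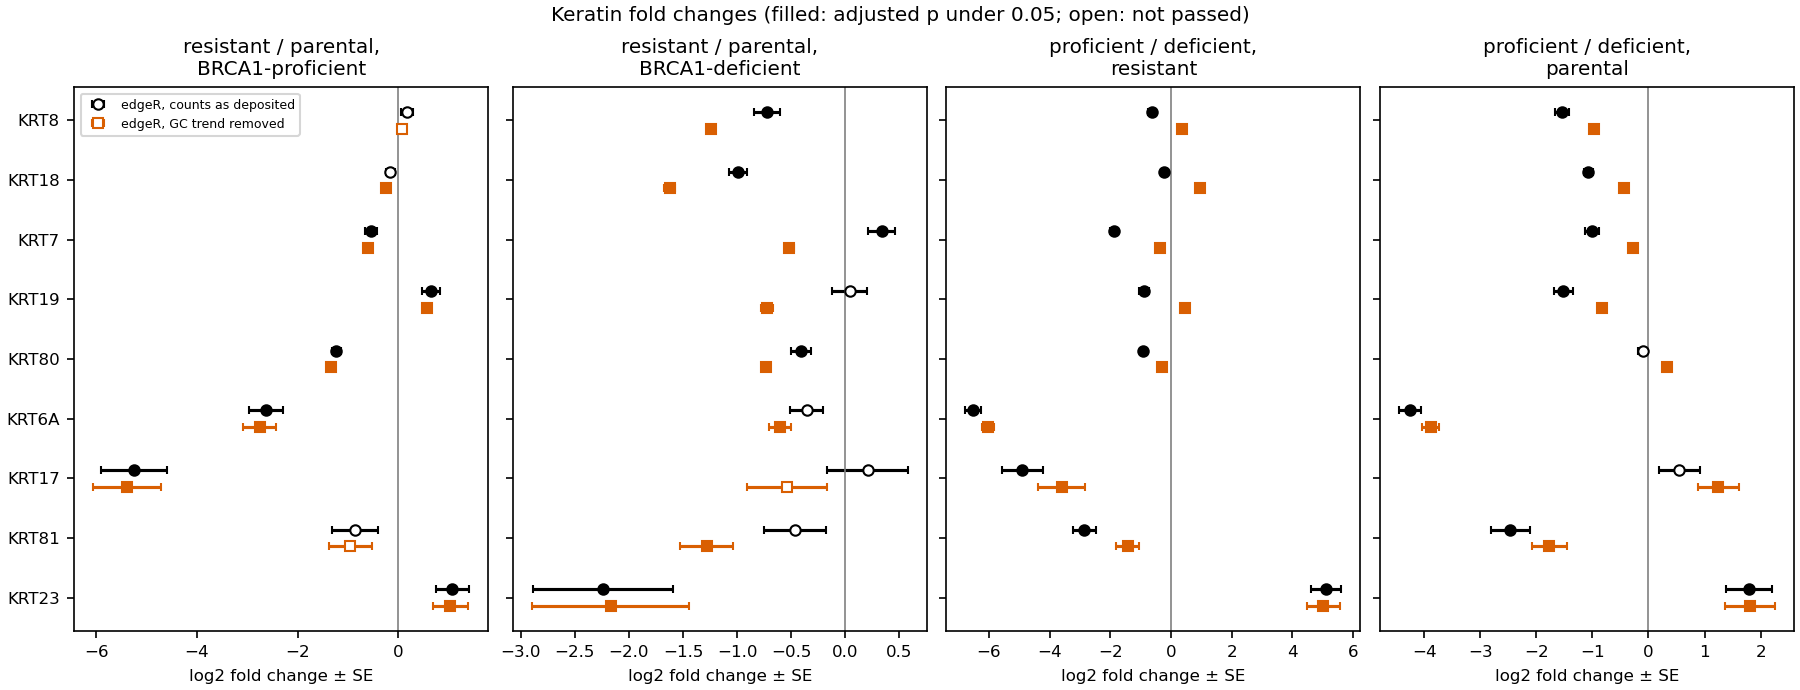
Log2 fold change ± SE (horizontal axes, a scale of its own per panel) of the 9 keratins that passed the filter on low counts in the 4 pairwise comparisons, as counted (circles) and with the GC trend removed (squares), filled where the adjusted p was under 0.05. KRT6A lies at -6.52 and KRT23 at 5.11 between resistant proficient and resistant deficient cells, and KRT8, KRT18 and KRT19 change sign there when the GC trend is removed.

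Resistance in the proficient background left 2 of the 9 keratins tested higher (KRT19, KRT23) and 4 lower (KRT7, KRT6A, KRT17, KRT80), where 25.9% of all 16221 genes tested rose and 27.8% fell. Their median log2 fold change was -0.54, against 0.00 over all genes. Once the GC trend was removed KRT18 was also lower, which made 2 higher and 5 lower, where 29.5% of all genes rose and 33.5% fell. In the deficient background 1 rose (KRT7) and 4 fell (KRT8, KRT18, KRT23, KRT80), where 28.9% of all genes rose and 27.0% fell, with a median of -0.41 against 0.03. With the GC trend removed 0 rose and 8 fell, where 31.8% of all genes rose and 27.1% fell, and KRT17 alone did not pass. The keratin medians were then -0.73 in the deficient and -0.60 in the proficient background, against 0.05 and -0.03 over all genes.

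Between proficient and deficient parental cells 1 of the 9 rose (KRT23) and 6 fell (KRT7, KRT8, KRT18, KRT19, KRT6A, KRT81), where 32.3% of all genes rose and 30.1% fell, with a median of -1.07 against 0.00. Removal of the GC trend let KRT17 and KRT80 join those that rose, which made 3, where 32.8% of all genes rose and 30.4% fell. Between proficient and deficient resistant cells 1 rose (KRT23) and the other 8 fell, where 36.3% of all genes rose and 37.5% fell, with a median of -0.93 against -0.02. With the GC trend removed 4 rose (KRT8, KRT18, KRT19, KRT23) and 5 fell (KRT7, KRT6A, KRT17, KRT80, KRT81), where 33.4% of all genes rose and 39.5% fell. The keratin medians were then -0.43 between the parental and -0.28 between the resistant lines, against 0.02 and -0.08 over all genes. These comparisons share libraries in pairs, so their counts are not independent of each other.

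The resistance effects of the 2 backgrounds were compared by the difference of the effects, proficient minus deficient. As counted it was called above 0 for 3 keratins and below 0 for 4, where 21.4% of all genes passed upward and 25.3% downward. The median was -0.40 against -0.08 over all genes. With the GC trend removed 4 were called above 0 and 3 below, where 3875 of 16221 genes passed upward and 5095 downward. The median was then 0.33 against -0.09. As counted, the difference was 0.90 ± 0.17 for KRT8 (edgeR adjusted p = 0.00143) and 0.84 ± 0.12 for KRT18 (edgeR adjusted p = 0.00021), the pair that fell in deficient and did not pass in proficient resistant cells. KRT23, which rose in one background and fell in the other, had 3.32 ± 0.72 (edgeR adjusted p = 0.00322). It was -2.27 ± 0.38 for KRT6A (edgeR adjusted p = 0.000596), -5.45 ± 0.79 for KRT17 (edgeR adjusted p = 0.000238) and -0.82 ± 0.13 for KRT80 (edgeR adjusted p = 0.000351). KRT80 fell in both backgrounds, more in proficient cells, whereas KRT6A and KRT17 fell in proficient cells and did not pass in deficient cells as counted. For KRT7 the difference was -0.87 ± 0.18 as counted (edgeR adjusted p = 0.00218), but -0.09 ± 0.06 with the GC trend removed (edgeR adjusted p = 0.208). For KRT19 it was 0.61 ± 0.24 (edgeR adjusted p = 0.0543) as counted and 1.29 ± 0.08 with the trend removed (edgeR adjusted p = 4.66e-11), and it passed in 8 of the 16 alternatives. KRT81 did not pass, at -0.40 ± 0.54 as counted (edgeR adjusted p = 0.578) and 0.33 ± 0.52 with the trend removed (edgeR adjusted p = 0.611).

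The composition of the keratin mRNA was read per length, as the share of summed counts per kilobase of transcript. KRT18 took 42.2 ± 2.10% in resistant proficient, 42.5 ± 0.481% in parental proficient, 27.2 ± 1.85% in resistant deficient and 39.3 ± 0.629% in parental deficient cells (SD, n = 2 each). KRT7 took 18.55 ± 0.665%, 24.4 ± 0.304%, 37.6 ± 0.488% and 21.7 ± 0.941% in the same groups. Resistant deficient cells thus held the lowest KRT18 share and the highest KRT7 share, and the shares of no other group overlapped theirs. KRT8 took 25.5% to 33.2% in a library, KRT19 took 2.91% to 5.56%, KRT80 took 1.98% to 4.50%, and KRT6A took at most 0.470%.

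By CPM per kilobase of transcript, KRT18 led in parental deficient cells at 1527 ± 41.5, followed by KRT8 at 1278 ± 33.6 and KRT7 at 844 ± 72.9. In resistant deficient cells KRT7 led at 1066 ± 170 CPM per kilobase, with KRT8 at 774 ± 142 and KRT18 at 767 ± 60.5, and the order of the last 2 differed between the libraries. In resistant proficient cells the order was KRT18 at 653 ± 44.7, KRT8 at 498 ± 71.5 and KRT7 at 288 ± 44.3 CPM per kilobase. In parental proficient cells KRT18 stood at 728 ± 76.8, KRT8 at 440 ± 35.4 and KRT7 at 419 ± 44.7 CPM per kilobase. Within both parental proficient libraries KRT8 stood a little above KRT7, at shares of 25.98% and 25.48% against 24.22% and 24.65%. KRT7, KRT8 and KRT18 differ in GC content. With each count divided by its library's GC trend, KRT18 took 26.68% and 29.03% and KRT7 took 32.4% and 34.1% in the resistant deficient libraries, still below and above every other library. KRT8 then took 32.3% and 28.9% there, so that KRT7 led it by little in replicate 1. In the parental proficient libraries KRT7 then stood above KRT8, at 26.09% and 25.88% against 24.67% and 24.6%.

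All 10 keratins together made up 0.307% and 0.257% of the counts in resistant proficient, 0.281% and 0.329% in parental proficient, 0.577% and 0.477% in resistant deficient, and 0.749% and 0.701% in parental deficient libraries. As counted, every deficient library had a higher share than every proficient library. With the GC trend removed this order did not hold for the resistant lines. The summed level of the 10 keratins was 3058 and 2578 CPM in resistant proficient, 2963 and 3362 CPM in parental proficient, 5723 and 4636 CPM in resistant deficient, and 7339 and 6913 CPM in parental deficient libraries. With each count divided by its library's GC trend it was 3677 and 3740 CPM in resistant proficient, 4374 and 4497 CPM in parental proficient, 2933 and 3047 CPM in resistant deficient, and 6409 and 6554 CPM in parental deficient libraries. Resistant deficient cells then stood lowest and parental deficient cells highest. In these bulk samples fewer keratin-expressing cells and less keratin RNA per cell cannot be told apart.

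The ratio of KRT8 to KRT18 counts within a library was 1.09 and 0.980 in resistant proficient, 0.840 and 0.810 in parental proficient, 1.47 and 1.27 in resistant deficient, and 1.14 and 1.14 in parental deficient libraries. In both backgrounds the ratio was higher in resistant than in parental cells, and the libraries did not overlap. With 2 libraries a group no exact permutation test can pass 0.05, so no p is given. The ratio of KRT7 to KRT8 counts was 0.481 and 0.474 in resistant proficient against 0.769 and 0.798 in parental proficient libraries, and 1.12 and 1.16 in resistant deficient against 0.568 and 0.522 in parental deficient libraries. It was thus lower with resistance in proficient and higher with resistance in deficient cells. Both ratios kept these directions with the GC trend removed, but the KRT7 to KRT8 ratio of the resistant deficient libraries, then 0.827 and 0.975, overlapped that of the parental proficient libraries, at 0.873 and 0.868. The type II share of all keratin counts per kilobase was 52.6 ± 1.47% in resistant proficient, 54.5 ± 0.396% in parental proficient, 67.5 ± 1.41% in resistant deficient and 57.0 ± 0.389% in parental deficient cells.

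**Figure D4:**
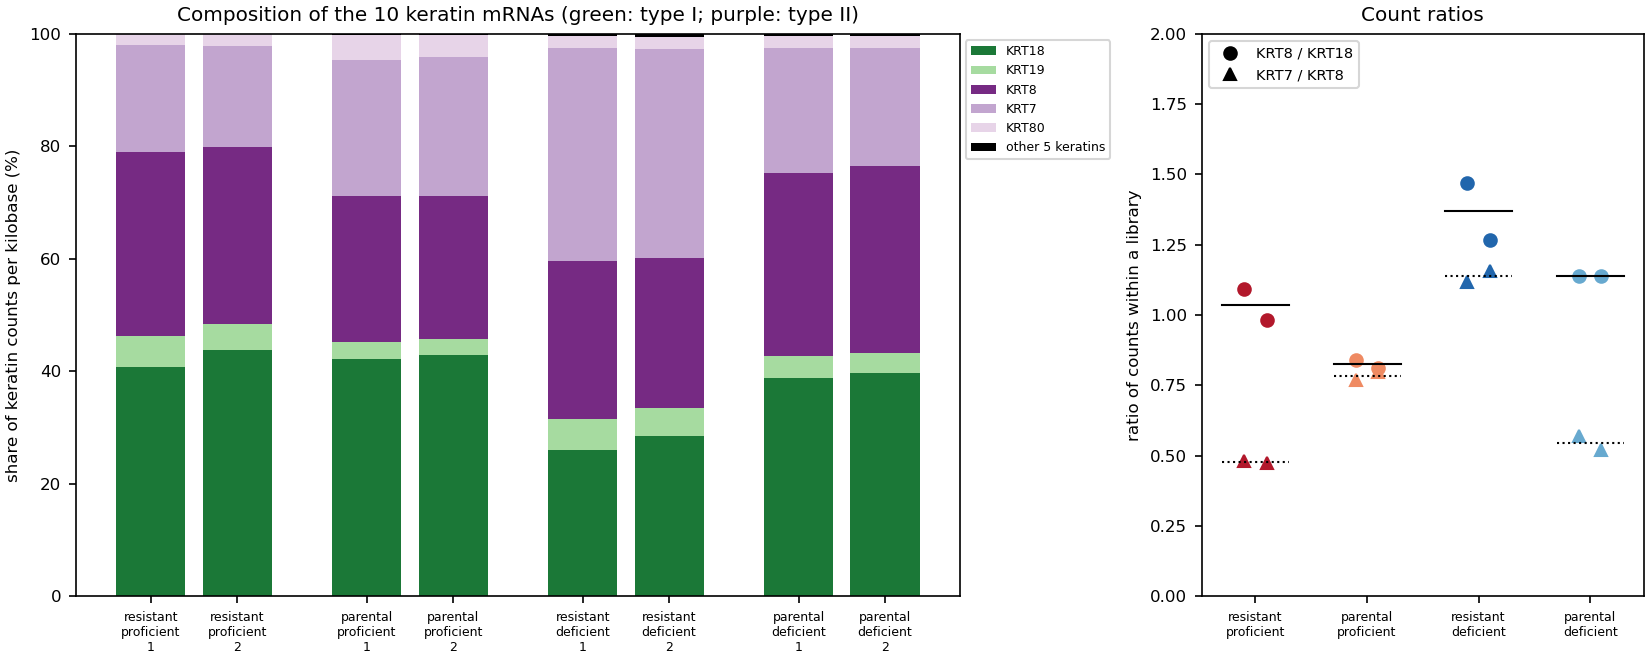
Left, share of each keratin in the summed counts per kilobase of the 10 keratins (vertical axis, percent), with 1 bar per library, type I in green and type II in purple. Right, ratios of KRT8 to KRT18 counts (circles, solid lines for group means) and of KRT7 to KRT8 counts (triangles, dotted lines) per library; resistant deficient libraries have the highest values of both as counted, at 1.27 and 1.47 and at 1.12 and 1.16.

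Of 45 other type I and type II keratins in the table, 5 passed the filter on low counts, and 29 to 35 were at 0 in a library. With resistance in deficient cells 0 of the 5 rose and 4 fell (28.9% and 27.0% of all genes), also with the GC trend removed. In proficient cells 1 rose and 1 fell (25.9% and 27.8%), or 1 and 2 with the trend removed. Between the parental lines 1 rose and 3 fell (32.3% and 30.1%) either way. Between the resistant lines 1 rose and 2 fell (36.3% and 37.5%), or 2 and 1 with the trend removed. The shares of all genes with the trend removed are given above. KRT10, a type I keratin of suprabasal epidermis, had 18.0 ± 2.39, 19.5 ± 1.67, 10.4 ± 0.943 and 9.26 ± 0.535 CPM in resistant proficient, parental proficient, resistant deficient and parental deficient cells (SD, n = 2 each). It was higher in proficient cells, by 1.07 ± 0.15 in parental (edgeR adjusted p = 7.50e-05) and 0.79 ± 0.15 in resistant cells (edgeR adjusted p = 0.000459). KRT13, of mucosal stratified epithelia, reached 2.49 ± 0.409 CPM in parental deficient cells. With resistance in deficient cells it fell by 1.95 ± 0.37 (edgeR adjusted p = 0.00112), and it was 12.3-fold lower in resistant than in parental proficient cells over 2 and 25 counts (95% exact interval 3.07 to 107), or 6.70-fold lower without replicate 2 of resistant proficient cells and at least 3.73-fold lower without replicate 1. KRT15, a basal keratin, had 1.52 ± 0.126 CPM in parental deficient cells and, with resistance there, fell by 1.35 ± 0.43 (edgeR adjusted p = 0.0193).

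The genes most like KRT6A in their profile over the 8 libraries, among 12017 candidates that reached 5 CPM, were FES, TM4SF1 and FLNC. They are a tyrosine kinase, a membrane protein of the tetraspan type and an actin-binding filamin. Their root mean square differences from KRT6A in centred log2 CPM were 0.439, 0.452 and 0.463. TM4SF1 had 0.919 ± 0.123 CPM in resistant proficient, 4.81 ± 0.242 in parental proficient, 135 ± 8.75 in resistant deficient and 170 ± 2.33 in parental deficient cells. In the deficient background the means of FES and FLNC ran the other way from KRT6A. FES had 13.0 ± 3.76 CPM in resistant and 8.32 ± 2.15 in parental deficient cells, and FLNC had 209 ± 63.9 and 156 ± 16.6. FES had only 2 counts in each resistant proficient library. KRT6A was the 1 member with both 5 CPM and a range of 2 log2 units that this search required.

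Genes that anchor keratins to cell junctions moved in both directions. Of 19 desmosome and hemidesmosome genes tested, 4 rose and 7 fell with resistance in proficient cells, where 25.9% of all genes tested rose and 27.8% fell. With resistance in deficient cells 8 rose and 5 fell, where 28.9% of all genes rose and 27.0% fell. Of the same genes, 8 rose and 8 fell in proficient over deficient parental cells (32.3% and 30.1% of all genes), and 5 rose and 10 fell between the resistant lines (36.3% and 37.5% of all genes). The shares of all genes with the GC trend removed are those given above with the counts of keratins. The median log2 fold changes of these 19 genes were -0.27, 0.23, 0.07 and -1.07 in these comparisons. They were -0.27, 0.28, -0.04 and -0.33 with the GC trend removed. Then 7 rather than 4 rose with resistance in proficient cells, and 3 rather than 5 between the resistant lines. PKP2, a desmosomal plaque protein, changed with resistance by a log2 fold change of -0.999 ± 0.06 in proficient (edgeR adjusted p = 2.09e-07) and -0.79 ± 0.06 in deficient cells (edgeR adjusted p = 2.09e-06). DSP, desmoplakin, which ties keratins to the desmosome, had 517 ± 16.9 CPM in resistant and 862 ± 6.25 CPM in parental deficient cells and fell by 0.74 ± 0.06 (edgeR adjusted p = 1.86e-06). ITGB4, the integrin chain that binds keratins through the hemidesmosome, averaged 7.65 ± 1.69, 13.3 ± 3.69, 375 ± 138 and 87.5 ± 11.4 CPM in resistant proficient, parental proficient, resistant deficient and parental deficient cells. It rose with resistance in deficient cells by 2.10 ± 0.23 (edgeR adjusted p = 2.34e-05), or 1.14 with the GC trend removed. With resistance in proficient cells it fell by 0.79 ± 0.30 (edgeR adjusted p = 0.0409).

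Of 7 cornified envelope and squamous differentiation genes tested, 1 rose and 1 fell with resistance in proficient cells (25.9% and 27.8% of all genes) and 0 rose and 3 fell in deficient cells (28.9% and 27.0%). In proficient over deficient cells 0 rose and 5 fell among parental (32.3% and 30.1% of all genes) and 1 rose and 3 fell among resistant cells (36.3% and 37.5%). Their medians in these comparisons were 0.57, -0.45, -1.56 and 0.00, and 0.58, -0.70, -1.20 and -0.55 with the GC trend removed. Then 3 rather than 1 rose among resistant cells and 2 rather than 1 fell with resistance in proficient cells. SFN, stratifin, a 14-3-3 protein of stratified epithelia, had 6.12 ± 1.65 CPM in resistant proficient, 8.57 ± 0.886 in parental proficient, 69.0 ± 20.2 in resistant deficient and 49.6 ± 9.48 in parental deficient cells (SD, n = 2 each). Its mean was thus higher in resistant than in parental deficient cells, but it fell there by 0.39 with the GC trend removed (edgeR adjusted p = 0.000426). TGM1, a transglutaminase that crosslinks the cornified envelope, had 6.17 CPM in resistant and 21.2 CPM in parental deficient cells and fell by 1.79 ± 0.19 (edgeR adjusted p = 2.45e-05).

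Of 20 transcription factors of epithelial keratin genes, 3 rose and 12 fell with resistance in proficient cells (25.9% and 27.8% of all genes), and 4 rose and 7 fell in deficient cells (28.9% and 27.0%). In proficient over deficient cells 10 rose and 2 fell among parental (32.3% and 30.1% of all genes) and 10 rose and 5 fell among resistant cells (36.3% and 37.5%). Their medians in these comparisons were -0.41, -0.04, 0.41 and 0.32, and -0.46, -0.10, 0.39 and 0.80 with the GC trend removed. Among parental cells 14 then rose and 3 fell, and among resistant cells 11 rose and 5 fell. With resistance 3 then rose and 13 fell in proficient cells, and 4 rose and 8 fell in deficient cells. EHF, an epithelial ETS factor, averaged 108 ± 10.9, 12.4 ± 0.396, 0.957 ± 0.283 and 159 ± 2.94 CPM in resistant proficient, parental proficient, resistant deficient and parental deficient cells. It rose with resistance in proficient cells by 3.12 ± 0.11 (edgeR adjusted p = 4.06e-09) and, with resistance in deficient cells, fell by 7.34 ± 0.15 (edgeR adjusted p = 1.73e-10). FOSL1, an AP-1 subunit, averaged 1.02 ± 0.0295, 8.21 ± 0.214, 58.3 ± 3.51 and 58.8 ± 0.201 CPM in these groups. With resistance in proficient cells it fell by 3.003 ± 0.15 (edgeR adjusted p = 4.24e-08), and the log2 fold change of proficient over deficient was -2.84 ± 0.10 among parental and -5.83 ± 0.13 among resistant cells (edgeR adjusted p = 3.84e-09 and 4.94e-11).

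Among 12 other intermediate filament genes tested, 3 rose and 2 fell with resistance in proficient (25.9% and 27.8% of all genes) and 5 rose and 1 fell in deficient cells (28.9% and 27.0%). In proficient over deficient cells 1 rose and 7 fell among parental (32.3% and 30.1% of all genes) and 2 rose and 5 fell among resistant cells (36.3% and 37.5%). Their medians in these comparisons were 0.04, 0.40, -0.87 and -0.64, and -0.01, 0.29, -0.51 and -0.38 with the GC trend removed. Then 5 rather than 2 fell with resistance in proficient and 4 rather than 1 in deficient cells. VIM, vimentin, the intermediate filament of mesenchymal cells and of many cultured carcinoma lines, averaged 263 ± 0.869, 15.4 ± 0.326, 150.2 ± 5.95 and 79.97 ± 0.871 CPM in resistant proficient, parental proficient, resistant deficient and parental deficient cells. It rose with resistance in both backgrounds, by 4.10 ± 0.07 in proficient (edgeR adjusted p = 3.96e-11) and by 0.91 ± 0.06 in deficient cells (edgeR adjusted p = 9.60e-07), while the keratin KRT80 fell in both.

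Of 16 keratin-binding, chaperone and turnover genes, 3 rose and 6 fell with resistance in proficient (25.9% and 27.8% of all genes) and 9 rose and 2 fell in deficient cells (28.9% and 27.0%). In proficient over deficient cells 2 rose and 9 fell among parental (32.3% and 30.1% of all genes) and 2 rose and 11 fell among resistant cells (36.3% and 37.5%). Their medians in these comparisons were -0.03, 0.60, -0.40 and -1.08, and -0.03, 0.17, -0.42 and -0.80 with the GC trend removed. HSPA8, a constitutive HSP70 chaperone, averaged 2972 ± 52.2 CPM in resistant proficient, 963 ± 15.3 in parental proficient, 3288 ± 155 in resistant deficient and 3520 ± 152 in parental deficient cells (SD, n = 2 each), and parental proficient cells stood lowest. EPPK1, epiplakin, which binds keratin filaments, fell in proficient over deficient cells, at a log2 fold change of -1.69 ± 0.23 among parental and -5.04 ± 0.27 among resistant cells (edgeR adjusted p = 6.34e-05 and 3.28e-08), or -0.88 and -2.82 with the GC trend removed.

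Of 17 epithelial identity genes, 4 rose and 5 fell with resistance in proficient cells, near the 25.9% and 27.8% of all genes, and 6 rose and 4 fell in deficient cells (28.9% and 27.0%). In proficient over deficient cells 2 rose and 10 fell among parental (32.3% and 30.1% of all genes) and 4 rose and 8 fell among resistant cells (36.3% and 37.5%). Their medians in these comparisons were 0.06, 0.20, -0.37 and -0.19, and -0.01, -0.08, -0.02 and 0.08 with the GC trend removed. With the GC trend removed 3 rose and 8 fell with resistance in deficient cells, 6 rose and 6 fell among parental cells and 7 rose and 6 fell among resistant cells. CDH1, E-cadherin, averaged 175 ± 3.68, 88.1 ± 1.15, 50.8 ± 3.58 and 55.6 ± 1.71 CPM in resistant proficient, parental proficient, resistant deficient and parental deficient cells, and it rose with resistance in proficient cells by 0.99 ± 0.07 (edgeR adjusted p = 6.78e-07). CLDN3, a tight junction claudin, was called higher with resistance in deficient cells at 1.49 ± 0.37 as counted (edgeR adjusted p = 0.00577) but stood at -0.08 with the GC trend removed (edgeR adjusted p = 0.736).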

How the data were processed

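Human total RNA from cell cultures was sequenced, and the deposited table holds raw counts per gene symbol, whole numbers without normalisation. Per the submitters' processing notes, the genome build was GRCh37 and the tools named are DESeq2 1.24.0, Subread 2.0.1, featureCounts and Trimmomatic 0.39. Annotation, strand setting and handling of multiply matching reads: not given in the sources used here. Libraries were grouped by their titles. The 10 keratins and all gene lists were chosen with earlier results of these data known.

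Counts were tested with edgeR 4.0.16 (R 4.3.3; quasi-likelihood F test, TMM factors, filterByExpr, 16221 genes kept), with all 8 libraries in 1 fit (4 residual degrees of freedom) and Benjamini-Hochberg adjustment over all genes tested. "Rose" and "fell" mean adjusted p under 0.05. The SE is the log2 fold change divided by the square root of F. Ratios with 1 to 3 counts have exact conditional binomial intervals, and bounds use a floor of 3 counts over a group. Both cover counting error only. Chi-square tests of replicate libraries gave 4.21 (parental proficient) to 22.5 (resistant deficient) per degree of freedom, so none were alike within sampling noise.

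The GC trend was a natural spline with 5 degrees of freedom of each library's log2 CPM deviations on GENCODE v29 transcript GC, known for 95.9% of the genes tested, and was removed through offsets. The offsets were fixed, so the SE and p-values of those fits carry no error of the trend. For ratios, shares and summed levels each keratin count was divided by its trend, with KRT5, which was not tested, left as counted. Other alternatives were library totals alone, RLE factors, at least 1 CPM in 2 libraries, no filter, DESeq2 1.42.0, the 2 groups fitted alone, the replicate number as a block, and each library left out. The main edgeR fit was tested on simulated counts for resistant over parental deficient cells. Removal of the GC trend, the other alternatives, the ratios and the bounds were not tested in this way.

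Genes named beside the 10 keratins were other keratins of at least 1 CPM in a group mean and, from each list, comparison and direction, at most 2 genes with the largest fold change that passed and had at least 5 CPM. Not all of these are printed. KRT6B and KRT6C were named as paralogs, and KRT7-AS as an overlapping gene. Depths were 24094821 to 34394107 counts.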

Additional observations from a re-analysis of the deposited data

Results flagged for a closer look

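For 7 keratins the effect of resistance differed between the BRCA1 backgrounds, by edgeR's test of the difference of the effects (log2, proficient minus deficient). It was above 0 for KRT8 (0.90, adjusted p = 0.00143), KRT18 (0.84, adjusted p = 0.00021) and KRT23 (3.32, adjusted p = 0.00322). It was below 0 for KRT7 (-0.87, adjusted p = 0.00218), KRT6A (-2.27, adjusted p = 0.000596), KRT17 (-5.45, adjusted p = 0.000238) and KRT80 (-0.82, adjusted p = 0.000351). As counted, KRT7 and KRT23 are the members with opposite calls in the 2 backgrounds. With the GC trend removed KRT7 fell in both backgrounds, and KRT19 and KRT23 each rose in proficient and fell in deficient cells. After removal of the GC trend 6 of these differences were still called, at 1.31 for KRT8, 1.38 for KRT18, 3.21 for KRT23, -2.15 for KRT6A, -4.85 for KRT17 and -0.61 for KRT80. The difference of KRT7 was -0.09 and was not called. KRT17 rests on 2 counts in resistant proficient and KRT23 on 4 counts in resistant deficient libraries. KRT6A rests on 16 counts in resistant proficient and 102 in parental proficient libraries.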

How the results depend on the processing

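Removing the GC trend changed most. It turned the resistance effects in deficient cells of KRT7 (-0.52; -0.52 with the replicate block as well), KRT19 (-0.72; -0.72), KRT17 (-0.54; -0.54) and CLDN3 (-0.077; -0.0923), and the proficient over deficient values of KRT80 (0.33; 0.33) and KRT86 (0.40; 0.38) in parental and of KRT8 (0.35; 0.35), KRT18 (0.95; 0.95), KRT19 (0.47; 0.46), KRT86 (1.17; 1.17), DNAJB6 (-0.33; -0.32) and CLDN3 (0.13; 0.13) in resistant cells, and the KRT81 difference (0.33; 0.33). Genes other than keratins were checked for such turns only in the comparisons for which they were picked. Elsewhere others also ran against their mean CPM as counted, for instance SFN (-0.39), LMNA (-0.49) and ESRP1 (0.18) with resistance in deficient cells. With the trend removed, with or without the block, 0 keratins rose and 8 fell with resistance in deficient cells, 3 rose between the parental lines, and 4 rose and 5 fell between the resistant lines. The 1 keratin called higher with resistance in deficient cells became 0 at a filter of 1 CPM, by DESeq2 and with the 2 groups alone, and 0 to 1 without 1 library each. The 2 called higher with resistance in proficient cells became 1 by DESeq2 and 1 to 2 without 1 library each. The 3 differences above 0 became 5 without replicate 1 of resistant deficient cells (range 3 to 5).

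With 1 library left out, signs turned for KRT19 (-0.24 to 0.23) in deficient resistance, KRT10 (-0.22 to 0.066) in proficient resistance, KRT86 (-0.36 to 0.13) between the resistant lines and the KRT81 difference (-0.82 to 0.068).

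Counted per kilobase, the KRT8 to KRT18 ratio was 0.761 in resistant proficient, 0.606 in parental proficient, 1.01 in resistant deficient and 0.837 in parental deficient cells, and the type II share was 52.6%, 54.5%, 67.5% and 57.0% where raw counts gave 59.7%, 61.8%, 72.7% and 63.7%. Chosen after seeing the data, division of each count by the GC trend gave mean summed keratin levels of 3709, 4436, 2990 and 6482 CPM in these groups, where 2818, 3163, 5180 and 7126 CPM were counted (2578 to 3058, 2963 to 3362, 4636 to 5723 and 6913 to 7339 without 1 library each), and KRT8 to KRT18 count ratios of 0.791 in parental proficient and 1.14 in parental deficient cells (0.825 and 1.14 as counted). The ratios and bounds of KRT5, KRT17, KRT6B and KRT13 without 1 library were also added then.

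Replicate numbers do not mark a shared batch in the labels. Same-numbered libraries correlated in their deviations by r = -0.132 (parental proficient and resistant deficient) to 0.212 (resistant proficient and resistant deficient). The replicate block alone changed 1 keratin call, the KRT19 difference (0.60, edgeR adjusted p = 0.0101), which also passed without the filter on low counts, with library totals alone, with the GC trend removed with or without the block, and when replicate 2 of resistant proficient, replicate 1 of resistant deficient or replicate 2 of parental deficient cells was left out.

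Depth limits KRT5, KRT17, KRT23 and KRT81, which had at most 128 counts in a library, and KRT6A in the proficient libraries, which had 6 to 67. The causes of these changes were not tested.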
